A study of Homo sapiens with 10 samples.

Results

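Sites of RNA 5-methylcytosine (m5C) that spanned an exon junction were described in 2 human breast cell lines, MDA-468 and MCF-10A. A site was taken as junction-spanning when it was listed as 2 or more separate blocks, with the genomic gaps between the blocks left out of the site. By this rule 423 of 5194 sites listed for MCF-10A and 1019 of 8320 listed for MDA-468 were members, together 1442 of 13514. The rule used no measured level, only the number of blocks.

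The sites came from methylated RNA immunoprecipitation and sequencing, in which polyadenylated RNA is broken into short fragments, fragments bound by an antibody against 5-methylcytosine are sequenced, and the reads are set against those of the input RNA. MDA-468 is a breast cancer line and MCF-10A a line of mammary epithelial cells that is not tumorigenic. The 10 samples formed 5 groups of 2, which were MeRIP and input of each line and technical replicates of the MCF-10A MeRIP. No group was treated, each line is a single cell line, and the labels give every sample the same culture text, which names MDA-MB-468. Each line has 1 merged list of sites. The depth of the libraries is unknown, no spread over samples can be given, and no test between the lines was possible. Every comparison below is therefore between 2 lists, or between 2 kinds of site in a list, and shares carry exact Clopper-Pearson 95% intervals that cover counting error only.

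m5C is a methyl group on carbon 5 of cytosine, placed on RNA by NSUN-family enzymes and by DNMT2. In messenger RNA it has been mapped to coding sequence and to untranslated regions (UTRs), and it is read by proteins such as the export adaptor ALYREF. A mature transcript holds exons only, so a methylated stretch that lies across a splice junction appears on the genome as blocks separated by an intron. The site caller named in the file header, exomePeak, lays the exons of each annotated gene end to end before it looks for sites. On that assumption a gap shows where the gene model has an intron and does not by itself show that a read crossed the junction.

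The stretches below lie around junctions found only in MDA-468, each from 1 of 7 member sites. They are shown because they stand for the purine-rich junctions described below and for the genes with the most members. Each holds 60 bases read 5′ to 3′ on the transcript strand, 30 on each side of the junction, from GENCODE release 29 transcripts (GRCh38). The positions of the sites are those of the deposited files (hg19), and no position was carried from one build to the other. The first set holds coding junctions, and capitals mark the first copy of the octamer GAAGAAGA, which occurs again in lower case in RBM25.
RBM25, chr14:73567849-73576148, plus strand: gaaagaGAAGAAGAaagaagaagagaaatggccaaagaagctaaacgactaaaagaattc
PPM1G, chr2:27606820-27607609, minus strand: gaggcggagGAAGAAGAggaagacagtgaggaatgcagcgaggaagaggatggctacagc
MYO10, chr5:16701886-16703195, minus strand: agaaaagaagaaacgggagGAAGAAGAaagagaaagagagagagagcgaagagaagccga
The second set holds 1 coding junction from each of the 4 genes with the most junction-spanning sites in MDA-468, with no part in capitals.
MYH7B, chr20:33567601-33568852, plus strand: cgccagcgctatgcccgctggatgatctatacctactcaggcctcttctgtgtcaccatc
DNAH17, chr17:76421569-76422584, minus strand: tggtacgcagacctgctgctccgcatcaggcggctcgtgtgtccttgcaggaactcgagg
CDH23, chr10:73330611-73337696, plus strand: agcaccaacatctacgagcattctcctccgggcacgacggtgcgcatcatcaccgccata
TTLL10, chr1:1115678-1115970, plus strand: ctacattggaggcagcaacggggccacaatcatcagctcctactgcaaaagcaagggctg
In these 60 bases cytosine made up 38.3% in CDH23, 36.7% in MYH7B, 30% in DNAH17 and 28.3% in TTLL10. It made up 11.7% in PPM1G, 10% in RBM25 and 6.67% in MYO10. These last were chosen for an octamer without cytosine, so their low share is partly fixed by the choice. MYH7B also had the octamer, at another junction whose window held 23.3% cytosine.

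Junction-spanning sites made up 8.14% of all MCF-10A sites (7.41 to 8.92%) and 12.2% of all MDA-468 sites (11.6 to 13%). Counted by genes, 405 of 3704 MCF-10A genes with a site (10.9%) and 888 of 5280 MDA-468 genes (16.8%) had a junction-spanning one. In 75.8% of those MCF-10A genes and 63.2% of those MDA-468 genes every site of the gene spanned a junction. Most members had 2 blocks, 268 of 423 in MCF-10A and 800 of 1019 in MDA-468. Sites of 3 blocks made up 32.4% of the members in MCF-10A (27.9 to 37.1%) and 18.4% in MDA-468 (16 to 20.9%).

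The share depended on the length of the site. Among sites of 180 to 239 nt, 14.8% spanned a junction in MCF-10A and 13.7% in MDA-468. At 240 to 299 nt the shares were 7.45% and 7.22%. The lists differed more at the ends of the range. Under 120 nt the share was 7.58% in MCF-10A (5.21 to 10.6%) and 11.4% in MDA-468 (9.94 to 12.9%). From 420 nt upwards it was 3.23% (1.93 to 5.06%) and 12.6% (9.28 to 16.6%). When the MCF-10A shares were weighted by the lengths of the MDA-468 list the share over all lengths was 10.4%, against 12.2% in MDA-468. The reverse weighting gave 10.2% for MDA-468, against 8.14% in MCF-10A. There were 7 members of 600 nt or more in MCF-10A and 13 among the MDA-468 sites.

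**Figure D1:**
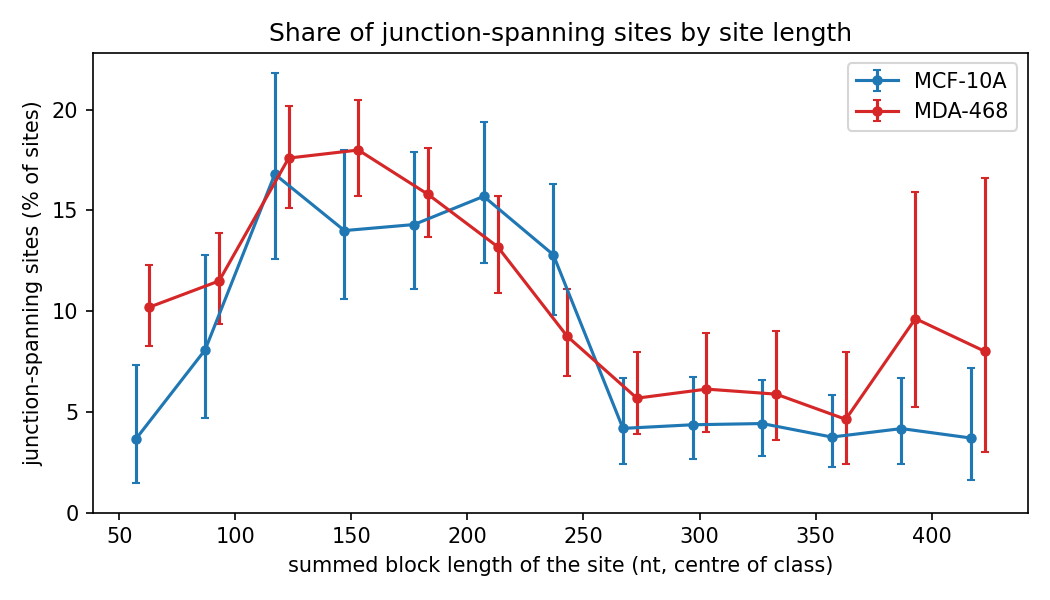
Junction-spanning sites as a percent of all sites (y axis) in classes of summed block length in nt (x axis), for MCF-10A (blue) and MDA-468 (red). Points are shares and bars exact 95% intervals, and both lines sit between 8.75% and 18% from 120 to 240 nt and lower at 270 nt.

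Members were shorter than single-block sites when their blocks were added up. The median summed length was 210 nt in MCF-10A (quartiles 151 and 270) against 271 nt for single-block sites, and 151 nt in MDA-468 (120 and 210) against 181 nt. Lengths mostly fell on a grid, since 83.9% of the MCF-10A members and 92.4% of the MDA-468 members were within 1 nt of a multiple of 30 nt. What set the grid was not tested. The smallest block of a site had a median of 31 nt in MCF-10A and 30 nt in MDA-468. A block under 10 nt was present in 12.8% of MCF-10A members and 16.7% of MDA-468 members. Such a block rests on few bases beyond the junction.

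In a site of 3 blocks the middle block lies between both gaps, so if both gaps are introns it is a whole exon of the gene model. In MCF-10A the middle block was the largest in 126 of 137 such sites (92%, 86.1 to 95.9%), and its median was 118 nt with quartiles of 97 and 123. In MDA-468 the middle block was the largest in 132 of 187 (70.6%, 63.5 to 77%), with a median of 108 nt and quartiles of 77 and 131. Middle blocks of 100 to 150 nt made up 61.3% in MCF-10A and 40.1% in MDA-468. In ACACA, which encodes acetyl-CoA carboxylase of fatty acid synthesis, the 2 MCF-10A sites had blocks of 37, 130 and 44 nt and of 23, 118 and 39 nt. In MYO3B, an unconventional myosin, the MCF-10A blocks were 23, 122, 61 and 35 nt and the MDA-468 blocks 23, 122, 61 and 5 nt. The first ACACA site had blocks of 7, 130 and 14 nt in MDA-468, and the second 2 blocks of 81 and 39 nt.

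The introns left out were longer in the MCF-10A list, whether taken singly or per site. A single gap had a median of 2910 nt in MCF-10A (quartiles 1088 and 7214) and 1360 nt in MDA-468 (443 and 3844). Over 274825 distinct introns of the transcripts that GENCODE tags as basic, a subset of all, the median length was 1739 nt. These are the annotated introns referred to below. The intron span of a site, its genomic span less its summed blocks, had a median of 4461 nt in MCF-10A (quartiles 1704 and 10896) and 1740 nt in MDA-468 (542 and 4858). More than 10 kb was spanned by 115 of 423 members in MCF-10A (27.2%, 23 to 31.7%) and by 142 of 1019 in MDA-468 (13.9%, 11.9 to 16.2%). Less than 1 kb was spanned by 15.6% and 37.4%. These sums also depend on the number of gaps, which was larger in MCF-10A. Gaps matched to 1 annotated intron of their gene had a median of 984 nt when found only in MDA-468. The medians were 2380 nt for those only in MCF-10A and 2269 nt for those in both lists. At the other annotated introns of the same genes the medians were 1088, 2218 and 2350 nt. The difference in length was thus also present in the rest of these genes.

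**Figure D2:**
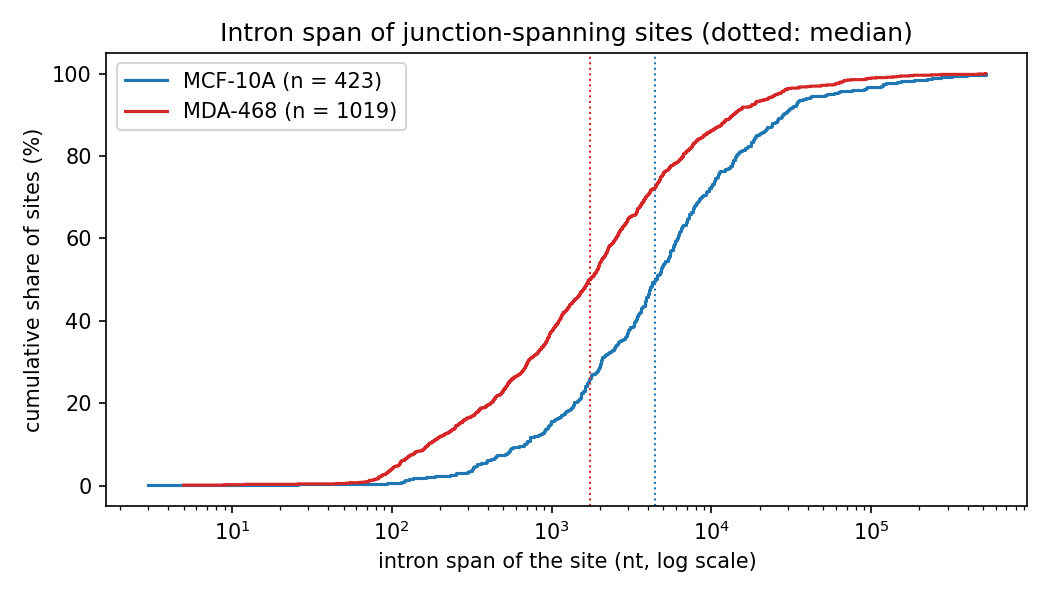
Cumulative share of junction-spanning sites (y axis, percent) by intron span in nt (x axis, log scale) for MCF-10A (blue, n = 423) and MDA-468 (red, n = 1019), with dotted lines at the medians of 4461 and 1740 nt. The MCF-10A curve lies to the right of the MDA-468 curve through most of the range.

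Among named genes the longest span was that of BCYRN1, listed on chromosome X with 518748 nt in both lists, followed in MDA-468 by MIR548F5, listed on chromosome 13 with 464525 nt. For both identifiers the RefSeq table gives the gene on another chromosome. They are 1 of the 415 members with a RefSeq chromosome in MCF-10A and 2 of 993 in MDA-468. CNTN4, a neuronal cell adhesion molecule, had 3 blocks of 33, 240 and 27 nt in both lists, over an intron span of 238298 nt. At the other end, the gap was 3 nt in PRPF31, a splicing factor, in MCF-10A, and in MDA-468 it was 5 nt in KRTCAP3 and 12 nt in MUC2, a gel-forming mucin. A gap under 70 nt was present in 4 members in MCF-10A and 12 in MDA-468, shorter than introns usually are. One member in each list lay on the mitochondrial genome, which has no introns. The MCF-10A one had 6 blocks from 7914 to 15888, and the nature of its gaps was not tested.

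A smaller share of junction-spanning than of single-block sites overlapped a site of the other line. In MDA-468 this held in each of the length classes compared, and in MCF-10A it did not. Sharing at least 1 base on the same strand counted as overlap. In MDA-468, 223 of 1019 members overlapped an MCF-10A site (21.9%, 19.4 to 24.6%) against 47.7% of all sites of the list and 51.3% of single-block sites. Among MDA-468 sites of 180 to 239 nt the shares were 27.3% for members (22 to 33.1%) and 61.2% for single-block sites (58.8 to 63.5%), and from 300 nt upwards 47.2% and 80.6%. In MCF-10A, 271 of 423 members overlapped an MDA-468 site (64.1%, 59.3 to 68.6%) against 74.3% of all sites and 75.2% of single-block sites. Within length classes the MCF-10A difference was small and went either way, with 65.2% of members and 62.6% of single-block sites at 180 to 239 nt. From 300 nt the shares were 95.6% and 96.1%. The p-values given are the authors' own. In MDA-468 sites of 180 to 239 nt the median of −log10 p was 13.4 for members and 14.3 for single-block sites.

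**Figure D3:**
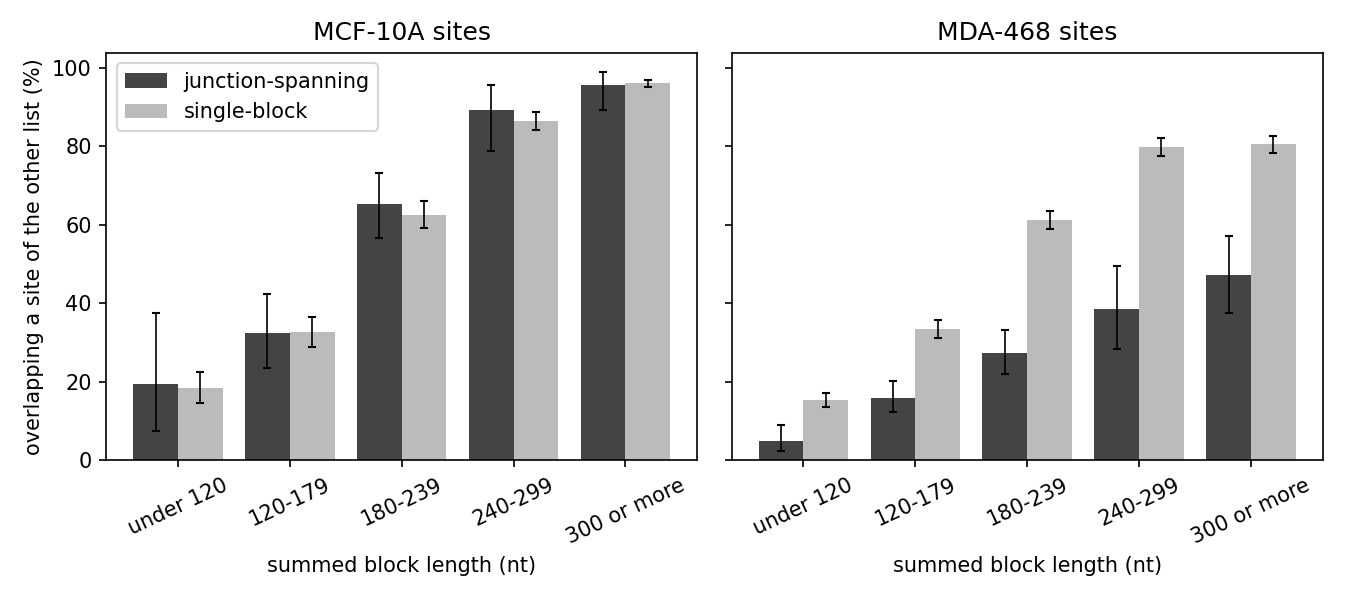
Percent of sites that overlap a site of the other list (y axis) by summed block length in nt (x axis), for MCF-10A sites (left) and MDA-468 sites (right), with junction-spanning sites in dark grey and single-block sites in light grey. Bars are shares with exact 95% intervals, and the dark bars fall below the light ones in all 5 MDA-468 classes, for example 27.3% and 61.2% at 180 to 239 nt.

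By the junction itself, with both ends at the same base, the lists had 285 junctions in common, 47.6% of the 599 in MCF-10A and 22.4% of the 1270 in MDA-468. A common junction linked 206 pairs of sites, 1 from each list. The MCF-10A site was longer in 130 of them, the MDA-468 site in 41, and 35 were within 1 nt, with a median difference of 30 nt. The 2 sites had identical blocks in 24 pairs. EEF1D, a subunit of the elongation factor that reloads eEF1A, was such a case, with blocks of 19, 131, 14 and 17 nt in both lists. Both lists named 203 genes with a junction-spanning site. Of the 888 MDA-468 genes with one, 580 (65.3%, 62.1 to 68.4%) had no site of any kind in MCF-10A, against 43.1% of all 5280 genes with a site. Of the 405 MCF-10A genes, 109 (26.9%, 22.7 to 31.5%) had none in MDA-468, against 18.9% of all 3704. Whether such genes were expressed in the other line is not known, since no expression values were used here.

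Among junctions that could be placed, those found only in MDA-468 lay mostly in coding sequence, and the others did not. Each gap was matched by its length to the introns of the same gene in GENCODE, which placed 1133 of 1584 distinct junctions (71.5%). Placed were 765 of 985 only in MDA-468 (77.7%), 191 of 314 only in MCF-10A (60.8%) and 177 of 285 in both lists (62.1%). Where the others lie is unknown. All transcripts of a gene were searched, whereas the annotated introns are those of basic transcripts only. Of the placed junctions found only in MDA-468, 662 of 765 lay in coding sequence (86.5%, 83.9 to 88.9%), against 71.8% of all annotated introns. Of those found only in MCF-10A, 77 of 191 did (40.3%, 33.3 to 47.6%). Of those found in both lists, 50 of 177 did (28.2%, 21.7 to 35.5%). The 5′ UTR held 29.4% of the junctions found in both lists, 19.9% of those only in MCF-10A and 4.31% of those only in MDA-468, against 8.48% of annotated introns. Noncoding transcripts held 36.2%, 34% and 7.45%, against 18.7%. The annotated type of the genes differed in the same way, with long noncoding RNA genes holding 23.6% of the MCF-10A members (19.7 to 28%) against 9.96% of the single-block sites. In MDA-468 these genes held 8.24% of the members and 8.66% of the single-block sites.

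Junctions found in MCF-10A, alone or in both lists, were often next to sequence that resembles Alu repeats, and junctions found only in MDA-468 were not. Alu elements are primate repeats that descend from 7SL RNA. Inserted antisense to a gene, they carry sequence that can be used as splice sites, and they are a known source of exons. Windows of 75 nt on each side of a placed junction were compared with 7SL RNA, the RNA of the signal recognition particle, and BCYRN1, a noncoding RNA related to it. A match was found in 80 of 174 windows of junctions in both lists (46%, 38.4 to 53.7%), in 65 of 181 of those only in MCF-10A (35.9%, 28.9 to 43.4%) and in 4 of 761 of those only in MDA-468 (0.526%, 0.143 to 1.34%). Over all annotated junctions it was found in 1.01%, and at the other junctions of the same genes in 2.96%, 3.02% and 0.134%. The match was antisense in 73 of the 80 windows (91.2%) and in 57 of the 65 (87.7%).

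**Figure D4:**
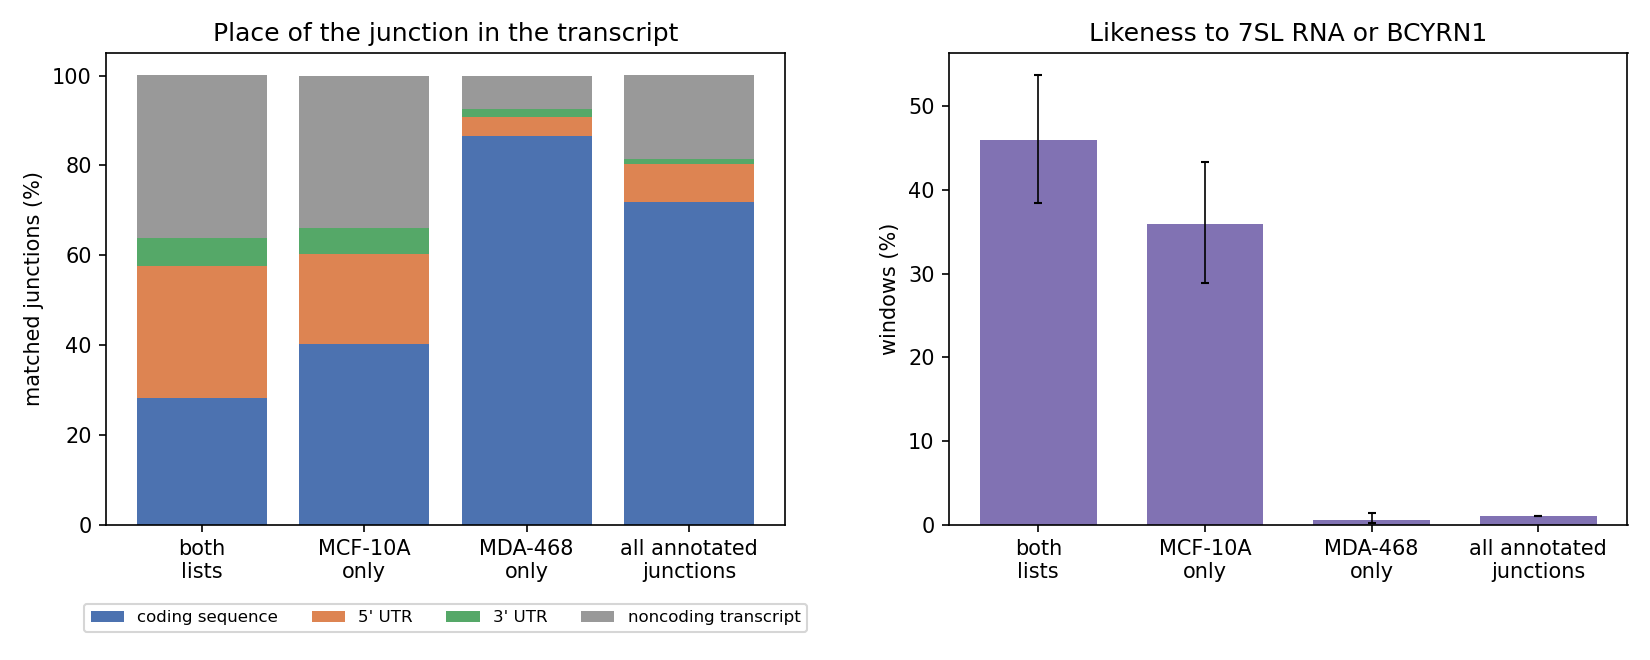
Left, percent of placed junctions (y axis) in coding sequence, 5′ UTR, 3′ UTR and noncoding transcripts for junctions found in both lists, in MCF-10A only, in MDA-468 only, and for all annotated introns of basic transcripts. Right, percent of windows around the junction that resemble 7SL RNA or BCYRN1, with exact 95% intervals, at 46%, 35.9%, 0.526% and 1.01%.

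The likeness was found in every kind of place. Of the windows of junctions in both lists, 48% in coding sequence and 55.1% in the 5′ UTR had it, where 0.186% and 1.98% of annotated windows did. Of those only in MCF-10A, 12 of 76 in coding sequence (15.8%, 8.43 to 26%) and 22 of 32 in the 5′ UTR (68.8%, 50 to 83.9%) had it. Counted junction by junction in MCF-10A, 92 of 186 windows of 3-block sites had it (49.5%, 42.1 to 56.9%) and 35 of 137 of 2-block sites (25.5%, 18.5 to 33.7%). Both junctions had it in 16 of 73 MCF-10A sites of 3 blocks (21.9%, 13.1 to 33.1%), and 1 or both in 52 of 73 (71.2%, 59.4 to 81.2%). In MDA-468, 55 of 283 windows of 3-block sites had it (19.4%, 15 to 24.5%) and 25 of 576 of 2-block sites (4.34%, 2.83 to 6.34%). The 2 junctions of a 3-block site are not independent. AURKA, the mitotic kinase Aurora A, had a likeness at 2 of its common junctions, both in the 5′ UTR, antisense to 7SL RNA at one and sense at the other. SPOP, an adaptor of a ubiquitin ligase, had it antisense in the 5′ UTR with 89.5% identity over 57 nt. NEK4, a kinase of the NIMA family, had it in coding sequence between exons 8 and 9, with 87.7% identity over 73 nt. How reads that fit several places in the genome were treated is not given in the sources used here, so the placement of sites in repeats is uncertain. Pseudogenes such as DPY19L1P1, with 3 common junctions, are by nature similar to their parent genes.

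Octamers were then counted in the same windows. Where an octamer occurs in Alu sequence its counts are not separate from the likeness above. The octamer found in most windows of junctions in both lists was GCTCACTG, in 62 of 174 (35.6%), and it was in 29.3% of the windows only in MCF-10A, 0.394% of those only in MDA-468 and 0.945% of all annotated windows. It occurs in the antisense Alu sequence, and its reverse complement was in 1 of the 174 windows. The octamer found in most windows of junctions only in MDA-468 was GAAGAAGA, in 80 of 761 (10.5%, 8.42 to 12.9%). It was in 2.87% of the windows in both lists, 0.552% of those only in MCF-10A and 2.85% of all annotated windows, and its reverse complement was in 6 of the 761. At the other junctions of the genes with a junction only in MDA-468 it was in 3.39%. Where such a gene had the octamer at a listed junction, its other junctions had it more often, in 113 of 1168 windows (9.67%, 8.04 to 11.5%). Both octamers were chosen after these counts were seen, other frequent octamers overlap them by most of their letters, and a match is a description of the letters only.

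The 80 GAAGAAGA windows came from 59 genes. Their median cytosine share was 12.7% (quartiles 9.33 and 16.2) against 30% in the other 681 windows. The octamer holds no cytosine, so a low share is partly fixed by the choice. All 7504 annotated windows with the octamer had a median of 20% (16.7 and 24). Their sites had the smaller deposited p-values, with a median −log10 p of 14.7 (quartiles 11 and 39) against 10 (7.72 and 14.4). Windows of 1 site share its p-value, and sites with several such windows count more than once in these medians. CANX, calnexin, a lectin chaperone of the endoplasmic reticulum, had 3 blocks of 110, 80 and 20 nt with a deposited p-value of 1e-184, and its windows held 7.33% and 14.7% cytosine. PTMA, prothymosin alpha, a highly acidic nuclear protein, had 4 blocks with a deposited p-value of 1e-174 and windows of 9.33% and 7.33%. ANP32B, an acidic histone-binding protein, had 4 blocks of 118, 119, 52 and 71 nt with a deposited p-value of 1e-156, and 1 of its windows held 2.67% cytosine. NCL, nucleolin, had blocks of 34, 198 and 8 nt with a deposited p-value of 1e-148, and SET, a histone chaperone with an acidic tail, blocks of 32, 147 and 30 nt with a deposited p-value of 1e-120. These proteins carry runs of glutamate and aspartate, and GAA and GAG are the glutamate codons. They were named for their small p-values among the 59 genes. The reading frame of the octamer was not examined, and a link to such runs was not tested. PTMA, ANP32B, NCL and SET have processed copies elsewhere in the genome, so their read counts are uncertain.

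**Figure D5:**
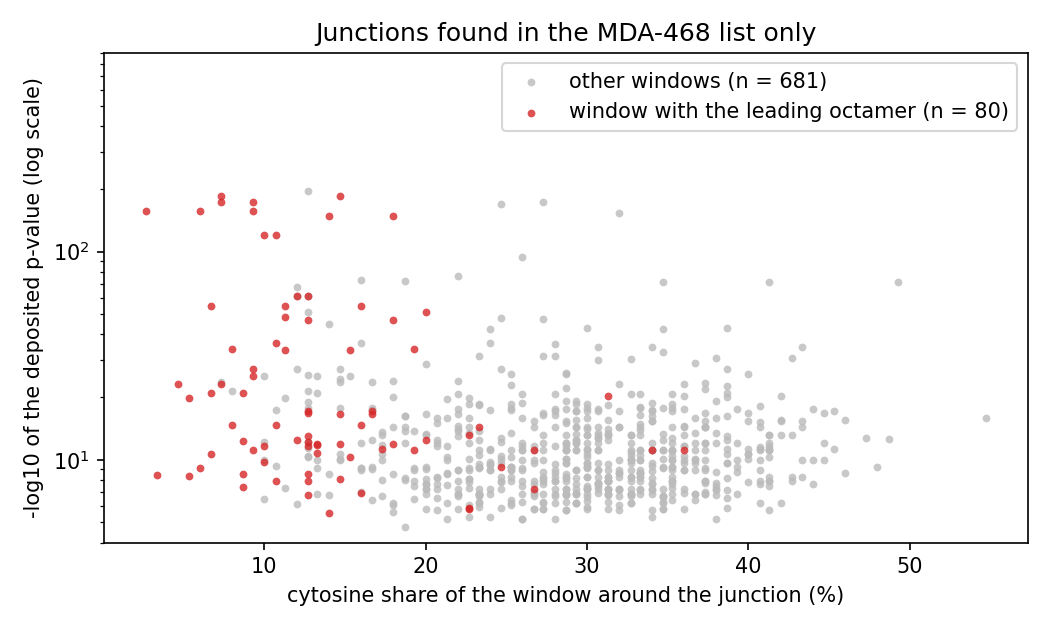
Cytosine share of the window around each placed junction found only in MDA-468 (x axis, percent) and −log10 of the deposited p-value of its site (y axis, log scale), with windows that hold the leading octamer in red (n = 80) and the others in grey (n = 681). The red points lie mostly below 20% cytosine. The highest point, at 195, is a grey one of LUC7L3, and CANX follows at 184.

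Of the 62 sites behind these windows, 26 (41.9%, 29.5 to 55.2%) overlapped a site that the authors' deposited table gives as higher in MDA-468, and 1 overlapped a site that was higher in MCF-10A. These sites have a junction absent from the MCF-10A list by the way they were chosen, and so do the 574 sites without the octamer set beside them. Of those 574, 55 overlapped a site higher in MDA-468 (9.58%, 7.3 to 12.3%) and 1 a site higher in MCF-10A. Over all MDA-468 sites the shares were 5.17% and 17.1%. The authors' deposited table gave a log2 fold change of 2.51 and a fold enrichment of MeRIP over input of 1.16 for CANX, 1.17 and 1.45 for PTMA, and 2.60 and 1.63 for ANP32B. Its fold enrichment was 2.21 for RBM25 and 1.97 for MYO10. These are values of the overlapping differential sites, which had 2 blocks at CANX and 4 at RBM25, where the members had 3 and 6. Among the 120 junction-spanning sites of the authors' deposited table higher in MDA-468, the median fold enrichment was 3.67 (quartiles 2.35 and 7.96). For the 26 octamer sites the overlapping differential site had a median fold enrichment of 2.04 (quartiles 1.67 and 2.34) in the authors' deposited table, and for the 55 without the octamer 3.52 (2.54 and 6.64). The highest of the 26 was 3.07.

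Junction-spanning sites took a larger part of the differential sites that were higher in MDA-468. The authors' deposited table held 1795 sites that differ between the lines. Its title lines name the comparison as MDA-468 compared with MCF-10A. Positive log2 fold changes were read as higher in MDA-468 from these lines and from their overlap with the 2 lists. Which list overlaps which direction, here and for the octamer sites above, is therefore partly fixed by that reading. By the authors' deposited table, of the 389 sites higher in MDA-468, 120 had 2 or more blocks (30.8%, 26.3 to 35.7%), against 129 of the 1406 higher in MCF-10A (9.17%, 7.72 to 10.8%). The differential sites higher in MCF-10A were longer, with a median of 420 nt for those of 2 or more blocks against 271 nt, and the part of length in the difference was not tested. Seen from the lists, 100 MDA-468 members overlapped a site higher in MDA-468 (9.81%, against 5.17% of all sites) and 51 a site higher in MCF-10A (5%, against 17.1%). Among MCF-10A sites, 85 members overlapped a site higher in MCF-10A (20.1%, against 28.7% of all sites) and 5 a site higher in MDA-468 (1.18%, against 0.481%).

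The MDA-468 members whose overlapping differential sites had the highest log2 fold changes were in genes of varied function. Each value is that of the differential site, which can have other blocks than the member. At SHOX2 it had 3 blocks and the member 2. The authors' deposited table gave a log2 fold change of 5.70 at ADSS1, an adenylosuccinate synthetase of muscle, which had 2 junction-spanning sites of 119 and 238 nt there. It gave 5.60 at MMP9, a gelatinase that degrades the extracellular matrix, whose site of 211 nt spanned 389 nt of intron. DNMBP, an exchange factor for CDC42, stood at 5.57, and SHOX2, a homeobox factor of the limb and heart, at 5.32 in the authors' deposited table. None of these MDA-468 sites overlapped an MCF-10A site.

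The lowest log2 fold changes at differential sites overlapping MCF-10A members were −5.61 at RGL3 and −5.49 at GRHL1 in the authors' deposited table. RGL3 is an effector of RAS and GRHL1 a transcription factor of surface epithelia. SLC12A2, the sodium, potassium and chloride cotransporter NKCC1, stood at −4.11 and MAD2L1BP, which acts in spindle checkpoint silencing, at −3.54 in the authors' deposited table. The differential site had 3 blocks at RGL3 and SLC12A2, where the member had 2, and 2 blocks at GRHL1, where the member had 3. At MAD2L1BP both had 3. These 4 members had no overlap in the MDA-468 list. FRG1JP, at −3.12, overlapped in both lists. It is a pseudogene, and its placement is uncertain where it resembles its relatives.

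ASTN2, an astrotactin of neuronal migration, had a site in both lists whose deposited p-value is written as 0, being too small for the number format. Its blocks were 1511 and 15 nt in MCF-10A and 793 and 45 nt in MDA-468, across the same gap of 4718 nt. ESRG, a long noncoding RNA, had blocks of 29, 105 and 46 nt in MCF-10A and of 29, 105 and 2167 nt in MDA-468. The gene lies on the minus strand and blocks are given in genomic order, so the longer block is at the 5′ end of the transcript. The authors' deposited table gave it a log2 fold change of 0.736. RHOU, a small GTPase, and DUSP5P1, a pseudogene, were listed in MDA-468 with the same first block of 386 nt, since their models overlap. The reads there cannot be assigned to either gene, and 17 MCF-10A members and 27 MDA-468 members shared bases with another site of their list.

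The genes with the most junction-spanning sites in MDA-468 had between 3 and 5 of them. MYH7B, a myosin heavy chain, had 5 sites of 90 to 241 nt, of which 1 overlapped an MCF-10A site. DNAH17, a dynein heavy chain of sperm flagella, had 5 sites of 91 to 271 nt, none of them in MCF-10A. CDH23, a cadherin of inner-ear hair cells, had 4, and its site with the smallest p-value, 5e-48 over 360 nt, also stood in MCF-10A. TTLL10, of the tubulin tyrosine ligase-like family, had 4 sites of 151 or 181 nt with p-values between 2.2e-09 and 7.9e-12. AHRR, a repressor of the aryl hydrocarbon receptor, had 3, as did other genes that the rule ranked after it. No named gene in MCF-10A had more than 2 such sites, and the 5 ranked first were ACACA, DPY19L1P1, LINC00671, DISC1 and LL22NC01-81G9.3. In all, 13 genes in MCF-10A and 90 in MDA-468 had 2 or more junction-spanning sites.

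In MCF-10A the named-gene sites with the most blocks had 4 of them. Those with the smallest p-values lay at RHBG, an ammonium transporter, at the zinc finger gene ZNF283, at FAM76A, at MYO3B and at SPOP. All 5 shared a junction with the MDA-468 list. The RHBG blocks were 39, 73, 123 and 93 nt, and the ZNF283 blocks 9, 64, 122 and 46 nt. In MDA-468 the site with the most blocks was at RBM25, a splicing regulator, with 6 blocks of 36, 287, 223, 90, 74 and 99 nt over an intron span of 7491 nt. UPF3A, a nonsense-mediated decay factor, ZRSR2, a factor of minor intron splicing, and PHKG1, a phosphorylase kinase subunit, had 5 blocks each, and none of these overlapped an MCF-10A site.

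Gene groups differed in how often their sites spanned a junction, set against 12.2% of all MDA-468 sites and 8.14% of all MCF-10A sites. Of MDA-468 sites, 13 of 35 in collagens, laminins and integrins had 2 or more blocks (37.1%), over a median intron span of 919 nt. Of the actin cytoskeleton and adhesion genes 13 of 45 sites did (28.9%), and of translation factors 6 of 23 (26.1%), among them EIF3A and EIF3J, subunits of initiation factor 3. Of sites in chromatin regulators 15 of 68 did in MDA-468 (22.1%), including 1 site each in ARID4A and ARID4B, which encode subunits of a histone deacetylase complex, against 1 of 20 in MCF-10A. Of splicing factors 8 of 45 MDA-468 sites did (17.8%) and 1 of 30 MCF-10A sites, PRPF31, whose gap of 3 nt is shorter than introns usually are. LUC7L3, a U1-associated splicing protein, had the smallest deposited p-value of these, 1e-195, over blocks of 39 and 231 nt, and SRRM1, an SR-related coactivator, had 2 sites. In the exon junction complex and decay list 3 of 9 sites did, at UPF3A and UPF3B.

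Zinc finger genes of the ZNF series had 14 of 265 sites across a junction in MDA-468 (5.28%) and 24 of 266 in MCF-10A (9.02%), and 13 of these genes were in both lists. Solute carriers had 19 of 141 (13.5%) and 7 of 89 (7.87%). Noncoding and small nucleolar RNA host genes had 77 of 426 in MCF-10A (18.1%) and 60 of 526 in MDA-468 (11.4%), with 37 genes in both. Chaperones had 5 of 30 in MDA-468 (16.7%), at CANX, DNAJC2 and HSP90AB1 among others. Ribosomal proteins had 1 in each list, at RPS20 over the same intron of 1172 nt. Glycolysis and citric acid cycle genes had none of 5 and none of 4, and the m5C writers, readers and TET enzymes none of 4 in MCF-10A and none of 6 in MDA-468. Keratins, plakins and desmosome genes had 5 of 22 in MDA-468 (22.7%), tubulins, kinesins and dyneins 7 of 42 (16.7%), and genes of receptor kinase and RAS signalling 6 of 46 (13%). Their shares in MCF-10A were 1 of 7, 2 of 21 and 4 of 25. HOX genes had 2 of 27 in MDA-468, interferon and antigen presentation genes 2 of 21, cell cycle genes 1 of 29 and the proteasome 1 of 5. Many of these counts are too small to set a group apart from all sites.

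Marker genes had too few sites to check the labelled cell types. No luminal marker site out of 3 in each list spanned a junction, and of the basal markers 3 of 10 sites in MDA-468 did, at COL17A1, a hemidesmosomal collagen, and ITGB4, its partner integrin. Stromal and blood markers that these cultures should lack had 2 of 6 sites in MCF-10A and 4 of 8 in MDA-468. PTPRC, the leukocyte phosphatase CD45, was listed in MCF-10A with blocks of 77 and 74 nt with a deposited p-value of 1.3e-19. It was listed in MDA-468 with blocks of 30, 136 and 74 nt with a deposited p-value of 7.9e-16, across the same last gap of 1501 nt. A listed site gives no level of the transcript, and the source of these reads was not tested.

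Chromosome 11 held 8.24% of the MDA-468 members (6.63 to 10.1%) and 5.81% of its single-block sites, and 4.26% and 3.77% in MCF-10A. Members lay on the plus strand in 47.3% of cases in MCF-10A and 49.6% in MDA-468. In sites of 2 blocks the larger block was the upstream exon in 44% in MCF-10A (38 to 50.2%) and 45.6% in MDA-468 (42.1 to 49.1%).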

How the data were processed

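m5C sites were read from 2 deposited lists, 1 per line, and a table of differential sites. TopHat and the build hg19 stand in the submitters' processing notes, with no role given. Per the file headers, the differential table was made with Tophat2 and exomePeak on UCSC known genes. The consistency rule for sites, the pooling of samples and the use of technical replicates were not given in the sources used here. The p-value of a site is as deposited, in the score column of its list. In the differential table, the ratio of MeRIP to input (fold enrichment) and the log2 fold change are the authors' values; its score columns, logarithms of p-values by the authors with no stated base, were not used. No depth or replicate values were given, so no test was made.

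Blocks, gaps, spans and overlaps (at least 1 base, same strand) were computed with Python 3.11.15, and exact 95% intervals with scipy 1.17.1. Gene names came from the RefSeq table by identifier, for 402 of 405 genes in MCF-10A and 885 of 888 in MDA-468. Each gap was matched by length to the introns of its gene in GENCODE release 29, with both blocks required to be no longer than their exons, which gives the junction's place without carrying coordinates between builds. All transcripts of the gene were searched. The annotated introns and windows set beside the junctions came only from transcripts tagged basic, without the mitochondrial genome. Windows of 150 nt were compared with blastn 2.17.0 at an E-value limit of 1e-05. Overlap and matching were tested on simulated sites.

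Named sites were, in each list, the 5 with most blocks, largest gap, smallest p-value, lowest and highest log2 fold change, the 3 with the smallest gap, the genes with most sites or common junctions, and up to 4 genes per gene list. Sequences and octamers were added later. Some sequences and 1 gene are not reported here. Members, lists and rules were chosen with earlier results of these data known. Gene lists were limited to genes of the matching RefSeq type after the sites were seen. Labels do not say whether the libraries keep strand, so overlapping genes cannot be told apart.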

Additional observations from a re-analysis of the deposited data

How the results depend on the processing

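No paired analysis was possible because the deposited lists hold 1 merged set per line, and for the same reason no replicate could be left out. Of 99 alternative values, 66 lay within the interval of the reported value and 33 outside it, and the cause of the moves was not tested. With only blocks of at least 30 nt, the share of junction-spanning sites was 4.16% in MCF-10A and 6.13% in MDA-468, the median summed length 239 and 180 nt, common junctions 34.4% and 16.4%, overlap in MCF-10A 70.4%, and likeness in MCF-10A only 26.6%. With p at or below 1e-10, MDA-468 had a share of 11.1%, an intron span of 2056 nt, a length of 209 nt, common junctions of 29.3% and overlap of 30.4%, and MCF-10A had common junctions of 39.6% and overlap of 51%. With the MDA-468 list at the length of the MCF-10A list, by p-value, MDA-468 had 10.8%, 2171 nt, 209 nt, 30.4% and 31.7%, and MCF-10A common junctions of 38.6% and overlap of 49.6%. For sites of 150 to 300 nt the MCF-10A share was 11.3%, its common junctions 41.1% and its overlap 45.8%, and the MDA-468 intron span 1988 nt. Counted by genes the shares were 10.9% and 16.8%. At the lengths of the MDA-468 list the share was 10.4% in MCF-10A and 12.2% in MDA-468. At the lengths of the MCF-10A list it was 8.14% in MCF-10A and 10.2% in MDA-468. MDA-468 thus had the larger share by genes, under each filter and at either set of lengths. The gap was smaller at equal lengths (for sites of 150 to 300 nt, 11.3% and 12.6%). Overlap over most of the site in place of 1 base gave 58.2% in MCF-10A. The alternatives for coding place and likeness were added after seeing the data, and an E-value limit of 0.01 gave likeness in 63.2% of windows in both lists and 52.5% of those only in MCF-10A. The longer MCF-10A intron span, the coding place of MDA-468 junctions and the contrast in likeness kept their order under all the filters run on them. Blocks and gaps limit the precision, since most summed lengths fall on a 30 nt grid and depth is unknown.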
